A study of Arabidopsis thaliana with 12 samples.

Results

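This account follows a tandem group of multidrug and toxic compound extrusion (MATE) transporter genes on chromosome 2 of Arabidopsis thaliana, AT2G04050, AT2G04070, AT2G04080, AT2G04090 and AT2G04100. The members were taken as the probe sets that the platform annotation ties to 1 of these genes alone, and the group was chosen by earlier results of the same arrays, namely its higher intensity in the mutant and a further increase there with chitooctaose. Of the 5 genes, 2 have such a probe set, AT2G04050 and AT2G04070, out of 13286 genes with one that the gene table lists. The other 3 lie on 2 shared probe sets. One of these is tied to both AT2G04090 and AT2G04100, and the other to AT2G04080 and to AT2G04066, a neighbour outside the group. A shared probe set cannot say which of its genes it reads, so its values are given for the pair.

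MATE proteins are membrane carriers that use a proton or sodium gradient to move organic compounds out of the cytosol, either out of the cell or into the vacuole. In plants they carry alkaloids, flavonoids, hormones, citrate and foreign toxic compounds. DTX1, the founding Arabidopsis member, exports plant alkaloids and other toxic compounds. In the gene table DTX1 is the gene directly before AT2G04050, and it was not analysed here because no single-gene probe set is named for it.

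The 12 one-colour arrays measured RNA of whole seedlings after 14 days in liquid medium under constant light at 23 °C. The 4 groups of 3 arrays were wild type Col-0 given water, wild type given chitooctaose, and Col-0 with a mutated chitin receptor given water or chitooctaose. Chitooctaose is a soluble oligomer of chitin, the fungal wall polymer, and was given at 1 uM for 30 minutes, reading the labels' "um" as micromolar. The labels name neither the allele nor the number of mutant lines, so a difference between the genotypes is one between these stocks of plants. The arrays are titled as biological replicates without stating separate cultures, so errors and p-values measure the spread between these arrays.

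Median intensities lay between 177.5 and 200.5, and arrays of 1 group correlated with r from 0.984 to 0.993 across probe sets. The residual SD of single arrays was 0.142 to 0.182, apart from 0.210 for wild type chitooctaose replicate 1. Among the root markers both root hair expansin genes differed between the groups. EXPA7 was lower in mutant than in wild type water by -0.65 ± 0.12 (limma adjusted p = 0.00112) and EXPA18 by -0.62 ± 0.11 (adjusted p = 0.00102), while the abundant root glucosidase gene PYK10 was at -0.01 ± 0.07 (adjusted p = 0.969). Wild type water was the highest group for both expansin genes. With chitooctaose they changed in wild type by -0.57 and -0.58 (adjusted p = 0.00163 and 0.000965). Between the genotypes in chitooctaose neither was called, at -0.13 and -0.07 (adjusted p = 0.538 and 0.744). The summed intensity of these 3 measured root markers of 6 ran from 10330 to 10933 in wild type water, 9421.9 to 10516 in wild type chitooctaose, 9862.6 to 10815 in mutant water and 10034 to 10792 in mutant chitooctaose, and none was at 0. PYK10, with group means from 9531.3 to 9845.5, made up most of each sum, so the sums say little about the expansin genes. None of the 5 leaf and 2 guard cell markers listed had a single-gene probe set named in the annotation, which leaves 8730 probe sets without a gene. The part of the organ make-up in the results below was not tested. In RNA of whole seedlings, fewer cells that express a gene and less RNA of it per cell cannot be told apart.

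AT2G04050, which codes for a MATE carrier, read 111.4, 102.6 and 104.5 in the wild type water arrays. With chitooctaose the wild type arrays read 134.4, 208.9 and 182.6. The mutant read 373.4, 328.7 and 377.9 in water and 744.3, 700.4 and 592.0 with chitooctaose. The 4 groups did not overlap, and their order from the lowest was wild type water, wild type chitooctaose, mutant water and mutant chitooctaose.

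AT2G04070, a second MATE gene of the group, read 37.7, 24.9 and 17.9 in wild type water and 32.4, 39.1 and 26.3 in wild type chitooctaose. In the mutant it read 226.6, 238.3 and 219.2 in water and 525.0, 493.5 and 503.9 with chitooctaose. Here the 2 wild type groups overlapped, all mutant water arrays were above them, and all mutant chitooctaose arrays were highest. The wild type readings were dim, above no more than 7.37% to 17.0% of the probe sets of their array, so this gene's level in wild type is poorly fixed and its fold against wild type depends on the pseudocount.

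**Figure D1:**
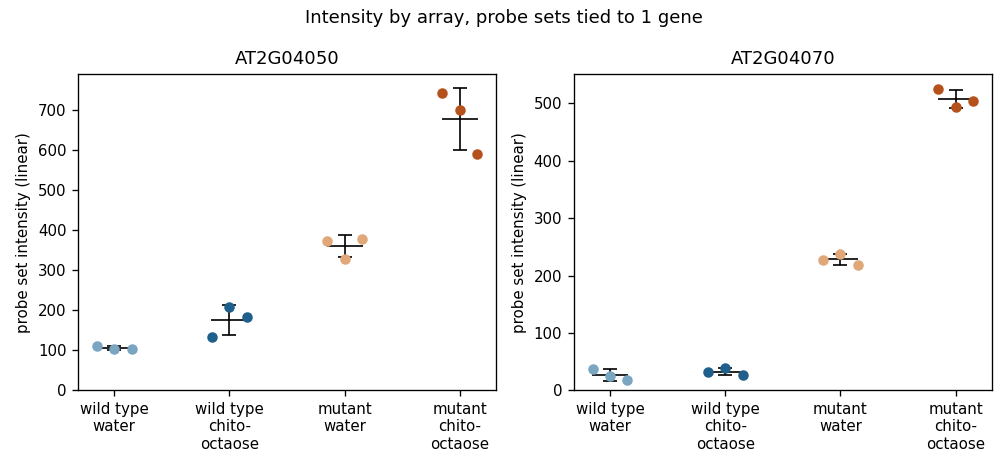
Probe set intensity on a linear scale (vertical axis) of AT2G04050 and AT2G04070 in the 4 groups of 3 arrays (horizontal axis), with points for arrays and bars for mean and SD. Mutant chitooctaose arrays read 592.0 to 744.3 for AT2G04050 and 493.5 to 525.0 for AT2G04070, above all other arrays of the same probe set.

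The first comparison asks how MATE levels differ between the genotypes in seedlings given water. Mean intensity of AT2G04050 was 360.0 ± 27.2 (SD, n = 3) in mutant water and 106.2 ± 4.63 (SD, n = 3) in wild type water, a ratio of 3.39. For AT2G04070 these means were 228.0 ± 9.62 and 26.8 ± 10.03 (SD, n = 3 each), a ratio of 8.50. On the scale of log2(intensity + 16), used for all fold changes here, the differences were 1.62 ± 0.13 and 2.54 ± 0.15, where errors are standard errors of the fit. They ranked 39 and 12 from the top of 22746 probe sets. The group was chosen for being higher in the mutant, so these values describe it and carry no test. Over all probe sets 4.03% were called higher in this comparison at a Benjamini-Hochberg adjusted p under 0.05 in limma, and 14.3% had all mutant arrays above all wild type arrays. For AT2G04070 the difference was 3.10 with a pseudocount of 1 and 1.69 with 64.

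The same genotype difference was seen among the chitooctaose arrays. AT2G04050 averaged 678.9 ± 78.4 in the mutant and 175.3 ± 37.8 in wild type, and AT2G04070 averaged 507.5 ± 16.1 and 32.6 ± 6.41 (SD, n = 3 each). The differences were 1.87 ± 0.13 and 3.44 ± 0.15 on the log2 scale, rank 28 and rank 6 of 22746. Of all probe sets 7.77% were called higher here and 14.3% had mutant arrays all above wild type arrays.

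The second comparison asks what chitooctaose did to these genes in the receptor mutant. AT2G04050 stood 0.88 ± 0.13 higher with chitooctaose than with water, a gain of 318.9 intensity units and a ratio of 1.89. AT2G04070 stood 1.10 ± 0.15 higher, a gain of 279.4 units and a ratio of 2.23. They ranked 27 and 4 of 22746. In this comparison 0.721% of probe sets were called higher, and 7.06% had all chitooctaose arrays above all water arrays. These values too chose the group and are given without a test. The count that the choice itself fixes, probe sets called both higher in mutant water and raised by chitooctaose in the mutant, was 41 (0.18%), of which 20 are tied to 1 gene. The mutant water arrays enter both comparisons. In 116 probe sets (0.51%), the 3 mutant chitooctaose arrays were above the 3 mutant water arrays and these above all 6 wild type arrays.

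The wild type response was not used to choose the group, although its water arrays also enter the genotype comparison in water, and it is the one comparison in which the members were tested. AT2G04050 rose with chitooctaose by 0.63 ± 0.13 (limma adjusted p = 0.00184), with all 3 chitooctaose arrays above all 3 water arrays. The mean gain was 69.1 units, a ratio of 1.65. AT2G04070 changed by 0.20 ± 0.15 (adjusted p = 0.398), its 95% interval running from -0.11 to 0.51, so a rise of up to 0.51 on the log2 scale is within the error. The change of AT2G04070 was 0.04 without wild type water replicate 3 and 0.11 without wild type chitooctaose replicate 2, and it was 0.38 when water replicate 1 was left out, with no call in any of the 6 such fits (adjusted p 0.0753 to 0.881). The call of 1 of 2 members stands beside 18.9% of all probe sets called in wild type, or 8.82% of all probe sets called higher. In 13.1% of all probe sets the wild type chitooctaose arrays were all above the wild type water arrays. AT2G04050 kept its call in all 6 fits that left out an array, with changes from 0.50 to 0.79 and adjusted p from 4.02e-05 to 0.0127.

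Set side by side, the 2 responses to chitooctaose were 0.88 in the mutant and 0.63 in wild type for AT2G04050, a difference of 0.25 ± 0.18. Leaving out replicate 1 of the wild type chitooctaose arrays gave 0.09, and leaving out replicate 2 of them gave 0.38. For AT2G04070 they were 1.10 and 0.20, a difference of 0.90 ± 0.21. Both differences contain the mutant response, by which the genes were chosen, so they are descriptions and carry no test. Over all probe sets 11.3% had a called difference of responses, 4.66% with the mutant response the higher.

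**Figure D2:**
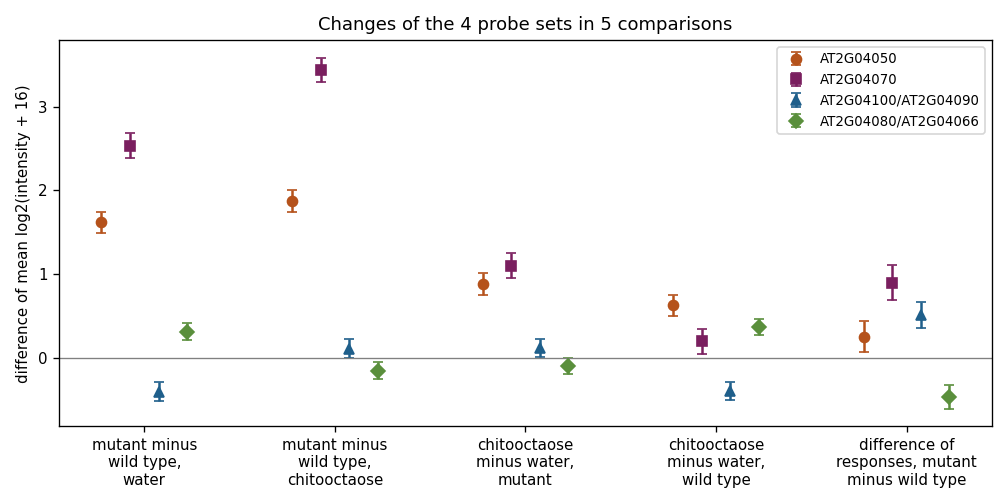
Differences of mean log2(intensity + 16) with standard errors (vertical axis) for the 4 probe sets of the group in 5 comparisons (horizontal axis). The points of AT2G04050 and AT2G04070, chosen for being higher in the mutant, are the highest in both genotype comparisons, at 1.62 and 2.54 in water. Those of the shared probe sets lie between -0.47 and 0.51 in all 5.

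The shared probe sets differed from this pattern. The one tied to AT2G04090 and AT2G04100 read 114.5, 126.2 and 114.7 in wild type water, 88.3, 89.6 and 81.3 in wild type chitooctaose, 91.7, 82.8 and 83.1 in mutant water and 95.6, 87.4 and 101.4 in mutant chitooctaose. Wild type water was the highest group, and the other 3 groups overlapped. It was lower in mutant than in wild type water by -0.40 ± 0.11 (limma adjusted p = 0.0251, with 6.3% of probe sets called lower), and of the 6 fits without an array only the one without mutant water replicate 1 kept the call (adjusted p = 0.0372, and up to 0.119 in the others). In wild type it fell by 0.39 with chitooctaose (adjusted p = 0.0169, with 10.1% of probe sets called lower), lost without wild type chitooctaose replicate 3 (0.0527), likewise without replicate 2 of the wild type water arrays (0.0815), and lost with the 6 wild type arrays fitted alone (0.0504). In the mutant it changed by 0.12 ± 0.11 (adjusted p = 0.784).

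The probe set tied to AT2G04080 and AT2G04066 read 209.7, 197.8 and 176.8 in wild type water and 288.4, 238.6 and 243.3 in wild type chitooctaose. In the mutant it read 258.4, 238.8 and 240.1 in water and 234.3, 239.1 and 214.1 with chitooctaose. Wild type water was its lowest group. It rose with chitooctaose in wild type by 0.37 ± 0.10 (limma adjusted p = 0.0134), a call lost without wild type water replicate 3 (0.0691), and in the mutant it changed by -0.10 ± 0.10 (adjusted p = 0.819). In water it was 0.31 ± 0.10 above wild type in the mutant (adjusted p = 0.0534), a difference called under 5 of the 8 other ways of processing with adjusted p from 0.0299 to 0.0365. Neither shared probe set was called between the genotypes in chitooctaose, at 0.11 ± 0.11 for the AT2G04090 and AT2G04100 pair (adjusted p = 0.564) and -0.15 ± 0.10 for the AT2G04080 and AT2G04066 pair (adjusted p = 0.36).

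**Figure D3:**
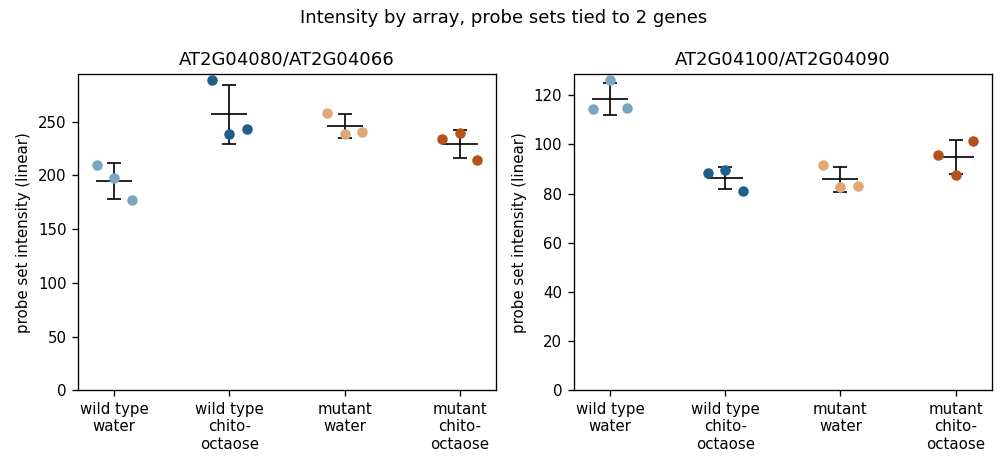
Probe set intensity on a linear scale (vertical axis) of the 2 shared probe sets in the 4 groups of 3 arrays (horizontal axis), with points for arrays and bars for mean and SD. Wild type water arrays are highest for the AT2G04100/AT2G04090 probe set (114.5 to 126.2) and lowest for the AT2G04080/AT2G04066 probe set (176.8 to 209.7).

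Genes lying beside and between the members were also examined. In the order of the gene table, 4 of 26 such neighbours have a single-gene probe set. They are bZIP48 and AT2G04039 before AT2G04050, and AT2G04060 and AT2G04063 between AT2G04050 and AT2G04070. Limma called 0 of the 4 between the genotypes in water, with 1 at an unadjusted p under 0.05, and 0 in the mutant response, again with 1, where 10.3% and 1.49% of all probe sets were called. Those shares are at an adjusted p under 0.05, and shares at an unadjusted p are not given here. AT2G04039 had 0.50 ± 0.15 in the water comparison (adjusted p = 0.0511) and AT2G04063, between the members, 0.15 ± 0.26 (adjusted p = 0.821). AT2G04060, which also lies between AT2G04050 and AT2G04070 and was read after its values were seen, had 0.01 ± 0.21 in the water comparison (adjusted p = 0.986) and 0.54 ± 0.21 in the mutant response (adjusted p = 0.32). Of the 8 other ways of processing, 5 brought 1 neighbour past the threshold in water.

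Of 20 other MATE genes listed, 12 had a single-gene probe set. In water 1 of the 12 was higher in the mutant and 0 were lower, against 10.3% of all probe sets called in either direction, and the median difference was 0.04 against -0.0023 over all probe sets. The gene called was AT1G71140, at 251.5 ± 3.04 in mutant water and 135.6 ± 4.22 in wild type water (SD, n = 3 each). Its difference was 0.82 ± 0.09 in water (limma adjusted p = 7.68e-06) and 1.00 ± 0.09 in chitooctaose (adjusted p = 1.4e-07). It was not called in the chitooctaose responses, at 0.20 ± 0.09 in the mutant (adjusted p = 0.418) and 0.02 ± 0.09 in wild type (adjusted p = 0.921).

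In the mutant response 1 of the 12 rose and 0 fell, against 1.49% of all probe sets called. This was AT3G23550, at 649.5 ± 31.4 with chitooctaose and 484.8 ± 14.3 with water (SD, n = 3 each), a change of 0.41 ± 0.09 (adjusted p = 0.0379). It lost the call in all 6 fits without an array. Its difference from wild type in water was 0.02 ± 0.09.

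In wild type 1 of the 12 rose and 1 fell, against 8.82% and 10.1% of all probe sets. AT5G52050 (DTX50), an abscisic acid exporter, rose by 2.31 ± 0.12 (adjusted p = 8.85e-11), from 107.1 ± 21.7 to 590.3 ± 33.2 (SD, n = 3 each). In the mutant it read 100.03 ± 5.53 in water and 82.5 ± 4.85 with chitooctaose, a change of -0.24 ± 0.12 (adjusted p = 0.496). AT5G65380 fell by 0.36 in wild type (adjusted p = 0.0019). In chitooctaose 2 were higher in the mutant, AT1G71140 and AT3G23550, and 1 lower, AT5G52050, against 17.3% of all probe sets. Of the differences of responses 1 was called, that of AT5G52050 at -2.55 ± 0.17, against 11.3% of all probe sets. AT3G23550, AT5G52050 and AT5G65380 were named after their values were seen.

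**Figure D4:**
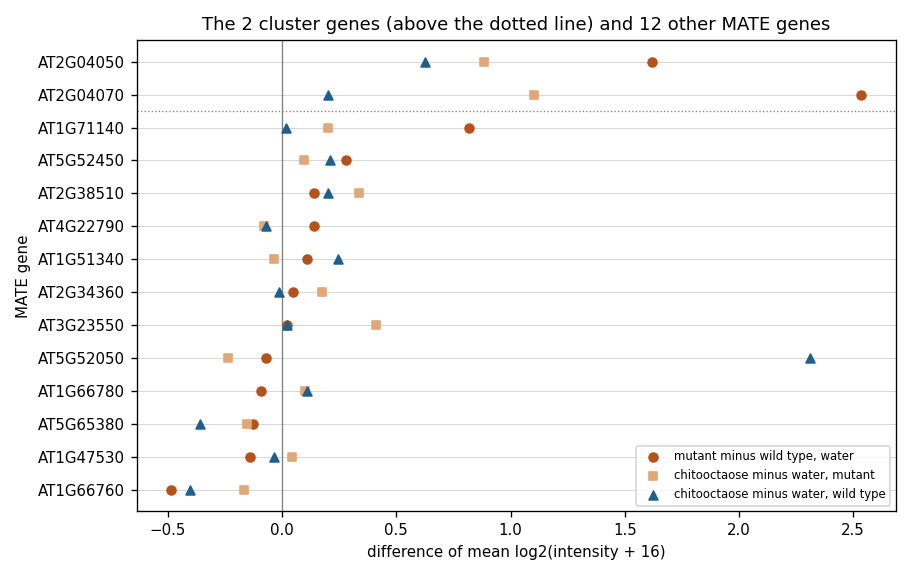
Differences of mean log2(intensity + 16) (horizontal axis) for AT2G04050, AT2G04070 and 12 other MATE genes (vertical axis), with circles for mutant minus wild type in water, squares for the mutant response and triangles for the wild type response to chitooctaose. AT2G04050 and AT2G04070 have the highest circles and squares of the 14 genes, followed among circles by AT1G71140 at 0.82, and AT5G52050 has the highest triangle at 2.31. AT2G04050 and AT2G04070 were chosen by the values that circles and squares show, so their high place there follows from the choice.

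MATE carriers act in detoxification beside enzymes that conjugate foreign compounds, and 2 such families were counted. Of 12 tau and phi class glutathione transferase genes measured of 39, 1 was higher and 1 lower in mutant than in wild type water, against 10.3% of all probe sets called. GSTU28 was lower by -0.70 ± 0.11 (limma adjusted p = 0.000426) and GSTU18 higher by 0.30 ± 0.07 (adjusted p = 0.0109), a call lost without wild type water replicate 1 (0.0771) or mutant water replicate 2 (0.0577). Between the genotypes in chitooctaose GSTU28 was not called, at -0.08 (adjusted p = 0.696). GSTU18 was there lower in the mutant, by -0.42 (adjusted p = 0.000412). In the mutant response limma called 0 of the 12, against 1.49% of all probe sets called at an adjusted p under 0.05. At an unadjusted p under 0.05 there were 4, and the share of all probe sets at that threshold is not given here. They were GSTU15 at 0.41, GSTU18 at -0.17, GSTU22 at -0.35 and GSTU27 at -0.33. GSTU15, GSTU22 and GSTU27 were named after their values were seen. Of 47 UDP-glycosyltransferase genes measured of 58, 6 were higher and 7 lower in mutant water, against 4.03% and 6.3% of all probe sets. UGT71C1 was lower by -0.70 ± 0.11 and UGT72E2, which glucosylates lignin precursors, by -0.67 ± 0.08, whereas UGT76E11 was higher by 0.66 ± 0.13 and UGT84A3, which glucosylates hydroxycinnamic acids, by 0.60 ± 0.09 (adjusted p from 4.03e-05 to 0.00268). In chitooctaose UGT71C1 and UGT72E2 were not called between the genotypes, at -0.05 and 0.13 (adjusted p = 0.813 and 0.359). UGT76E11 and UGT84A3 were higher in the mutant there too, by 0.57 and 0.71 (adjusted p = 0.00479 and 9.82e-06). In the mutant response 1 of the 47 rose, against 0.721% of all probe sets called higher. This was UGT76B1, a regulator of salicylic acid defence named after its values were seen, by 0.65 ± 0.10 (adjusted p = 0.00222). UGT76B1 fell in wild type by 0.81 and was lower in mutant than in wild type water by -0.50. No gene of 107 ABC transporters by symbol, or of 7 further detoxification genes, had a single-gene probe set named in the annotation. It leaves 8730 probe sets without a gene, so whether the array reads these genes is not known from it.

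MATE genes are among those known to respond to disturbed mitochondria in Arabidopsis, and 6 of 13 genes of that response were measured. In water 2 of the 6 were higher in the mutant and 0 lower, against 4.03% and 6.3% of all probe sets. AT2G21640, an oxidative stress gene whose protein is mitochondrial, was higher by 0.62 ± 0.15 (limma adjusted p = 0.0126), a call at or past the threshold without mutant water replicate 1 (0.063), mutant water replicate 3 (0.0536) or wild type water replicate 3 (0.05). NDB2, an alternative NADH dehydrogenase of the inner mitochondrial membrane, was higher by 0.40 ± 0.08 (adjusted p = 0.00197). In the mutant response, where 0.721% of all probe sets were called higher, 2 rose, NDB2 by 0.37 ± 0.08 (adjusted p = 0.0173), lost in all 6 fits without an array, and AT2G32020, an acetyltransferase gene named after its values were seen, by 0.50 ± 0.10 (adjusted p = 0.0101). The call of AT2G32020 was lost without mutant chitooctaose replicate 1 (0.0648), mutant water replicate 1 (0.0518) or mutant water replicate 3 (0.0518). NDB2 fell in wild type by 0.29 (adjusted p = 0.0109), whereas AT2G32020 rose there by 2.02 ± 0.10. Between the genotypes in chitooctaose 2 of the 6 were higher in the mutant and 2 lower, against 17.3% of all probe sets called. AT2G21640 and NDB2 were higher, by 0.82 and 1.07 (limma adjusted p = 0.000788 and 8.61e-09). AT2G32020 and AT2G41380, the latter named after its values were seen, were lower, by -1.49 and -0.64 (adjusted p = 1.77e-09 and 0.000578). The median of the 6 was 0.31 in water and 0.14 in the mutant response, against -0.0023 and -0.03 over all probe sets.

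The genes whose values ran most like those of the members were found by Pearson's r over the 12 arrays with the mean log2 value of AT2G04050 and AT2G04070, among 602 single-gene probe sets whose group means span at least 1 on the log2 scale. The 12 arrays fall into 4 groups, so r mostly follows the group means, and it is given as a description. The 8 highest were SAL2 (r = 0.989), AT5G03350 (0.986), CHI (0.983), AT4G22960 (0.982), AT2G18190 (0.978), AT1G71140 (0.976), LCR67 (0.971) and AT2G19930 (0.969). The next gene had 0.968 and the 50th 0.828.

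Among them AT5G03350, a legume lectin-domain gene, averaged 87.8 ± 7.44 in wild type water, 121.6 ± 13.0 in wild type chitooctaose, 328.9 ± 37.7 in mutant water and 506.4 ± 77.5 in mutant chitooctaose (SD, n = 3 each). SAL2, of the inositol phosphatase family, averaged 80.1 ± 5.70, 102.0 ± 9.73, 216.7 ± 11.4 and 317.2 ± 37.2 in the same order. AT2G18190 averaged 37.9 ± 7.27, 54.8 ± 4.08, 109.2 ± 4.78 and 210.7 ± 33.8. All 8 followed the same order of group means as the members. Their mutant minus wild type differences in water ran from 0.66 for AT4G22960 to 1.73 for AT5G03350, and their mutant responses from 0.20 for AT1G71140 to 0.85 for AT2G18190. CHI, a chitinase gene, had 1.20 and 0.53, and LCR67, a plant defensin gene, 1.00 and 0.69. Of the 8, AT1G71140 is the one that also belongs to the MATE list.

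**Figure D5:**
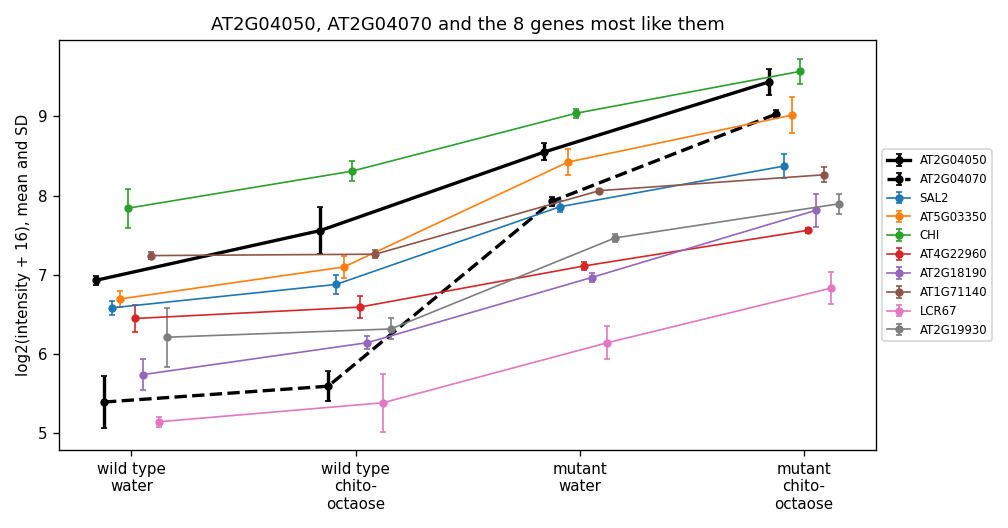
Mean log2(intensity + 16) with SD (vertical axis) of AT2G04050, AT2G04070 and the 8 genes most like them in the 4 groups of 3 arrays (horizontal axis). In every line the mutant chitooctaose point is the highest, and levels of different genes are not comparable because each probe set binds differently.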

How the data were processed

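RNA of 12 seedling samples was measured on Affymetrix arrays, with biotinylated cRNA made from 8 ug of total RNA, per the labels' protocols. Each deposited value is the linear intensity of a probe set on 1 array. Summarisation, background correction and scaling are not given in the sources used here. Columns were matched to samples by name, and groups come from the sample titles.

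Values were taken as log2(intensity + 16) without further scaling. The 64 control probe sets were left out, and 1 mean per group was fitted to 22746 probe sets with limma 3.58.1 in R 4.3.3 (eBayes, trend allowed, residual degrees of freedom 8 and prior 8.3). Probe sets were called at a two-sided Benjamini-Hochberg adjusted p under 0.05 over all of them. The annotation ties 13513 probe sets to 1 gene, 503 to several and 8730 to none. Names and gene order come from the table of assembly TAIR10.1, without coordinates because no build is named for the arrays. Sequences were not used here. Where a gene has several probe sets, the one with the highest mean was used.

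The members and lists were chosen with earlier results of these data known. Genes named are the members, the 8 most like them, and from each list up to 4 called genes with the largest difference between mutant and wild type in water, or the 2 with the lowest p. Same-numbered arrays deviated together with correlations from -0.04 to 0.14, not all above 0.1, so replicate numbers were not taken as pairs. With 3 arrays a group their number limits the precision. When the wild type comparison was simulated on 22746 probe sets, 76.1% of 1.5-fold, 97% of 2-fold and 100% of 4-fold changes were recovered with 10 false calls. The changes were put only into probe sets sampled after the dimmer ones were set aside, with independent noise. These rates therefore do not carry over to dim readings such as those of AT2G04070 in wild type. Figures were drawn with matplotlib 3.10.9 and pandas 2.3.3 under Python 3.11.15.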

Additional observations from a re-analysis of the deposited data

Results flagged for a closer look

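The response to chitooctaose differed between the genotypes for the 13 probe sets listed here in limma's test of the difference (adjusted p under 0.05). All 13 are among those named above other than AT2G04050 and AT2G04070, with AT2G41380 from the mitochondrial list named after its values were seen. Over all probe sets 11.3% were called in this test. Some of the 13 were named only after their values were seen, so their number is not a rate to set against that share. Values are mutant response minus wild type response on the log2 scale. The AT2G04100/AT2G04090 probe set had 0.51 (adjusted p = 0.0402) and the AT2G04080/AT2G04066 probe set -0.47 (adjusted p = 0.04), and each kept the call in 3 of 12 fits without an array (adjusted p 0.0351 to 0.109 for the first and 0.039 to 0.107 for the second). Among MATE genes AT5G52050 had -2.55. Among conjugating enzymes GSTU28 had 0.62, GSTU18 -0.72, UGT71C1 0.65, UGT72E2 0.79 and UGT76B1 1.45. Of the mitochondrial response genes NDB2 had 0.67, AT2G32020 -1.52 and AT2G41380 -0.82. The root hair genes EXPA7 and EXPA18 had 0.52 and 0.55, called in 3 and in 6 of the 12 fits without an array. Groups of 3 arrays are too small for a check of single outlying arrays.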

How the results depend on the processing

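For AT2G04050 and AT2G04070 every alternative run kept the direction of all 5 differences. As means over both genes, the water difference of 2.08 became 2.43 with a pseudocount of 1 and 1.503 with 64, that in chitooctaose went from 2.66 to 2.95 and 2.104, and the mutant response of 0.99 became 0.89 with 64. Without single arrays these means stayed within 1.99 to 2.18, 2.57 to 2.77 and 0.95 to 1.04, and the wild type count of 1 member called stayed at 1. Calls over all probe sets in the mutant response, 339, became 676 under quantile normalization, 672 under median centring, 193 with no mean-variance trend, and 155 to 243 without single arrays. For other MATE genes, 1 called in water became 2 under both normalizations and without the dimmest 40%, and 3 with only the groups compared. Their 1 in the mutant response became 0 with no trend and without any array, their 3 in chitooctaose became 5 under quantile normalization, and their 1 difference of responses became 3 under quantile normalization, 2 under median centring and 1 to 2 without single arrays. In the mutant response glutathione transferases went from 0 to 1 under both normalizations and without the dimmest 40%, and glycosyltransferases from 1 to 3 under quantile normalization, 2 under median centring and 1 to 3 without single arrays. Without single arrays, glutathione transferases in water ranged from 1 to 2, mitochondrial response genes from 1 to 2 in water and 0 to 1 in the mutant response. Neighbours called in water went from 0 to 1 under both normalizations, without the dimmest 40%, with the replicate block and with only the groups compared. With the replicate block the water difference of the AT2G04080/AT2G04066 probe set, 0.31, was called (adjusted p = 0.0309), as it was under both normalizations, without the dimmest 40% and with only the groups compared. With no trend its difference of responses lost the call (adjusted p = 0.0516). The block moved no other count above by over 1.5 times. The causes of these shifts were not tested. The promoter motif and protein identity comparisons were not run, since sequences were not used here.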
